A study of Gallus gallus with 24 samples.

Results

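The 24 broilers of the study were divided into 12 birds with a high level and 12 birds with a low level of a pair of interferon-stimulated genes, IFI6 and OASL, in the ileum. A score was taken per bird as the mean of log2(FPKM + 0.1) of IFI6 and OASL. The birds were selected on these measured values: within each of the 4 groups the 3 birds with the highest score were called high and the other 3 low, so every bird is in 1 of the classes. FPKM is the number of sequenced fragments of a gene, scaled for its length and for the depth of the library, and 0.1 is a small constant that keeps a value of 0 on the log scale. Since the ranking used the readout, the levels of IFI6 and OASL in high against low birds are given as a description and carry no test. The comparison asks which other genes varied with them between birds kept alike, in the same libraries, and it is not an effect of a diet or of the challenge.

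Interferons are secreted proteins through which a cell warns its neighbours of a virus or of an intracellular microbe. Type I and type III interferons bind receptors on the cell surface, and the receptors act through Janus kinases on transcription factors, which enter the nucleus and switch on a wide set of interferon-stimulated genes. These genes encode sensors of foreign nucleic acid, enzymes that stop viral replication, and inhibitors that end the response, and in the gut their basal level is kept up by the microbiota and by viruses. IFI6, for which RefSeq lists ISG12-2 as a synonym, is a small hydrophobic protein of the interferon response, and OASL belongs to the oligoadenylate synthetase family, which reacts to double-stranded RNA.

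The birds were Arbor Acres broilers of 14 d of age, with 6 birds per group, 1 from each cage. The CTL birds had the basal diet and 0.5 mL of PBS by mouth on d 5. The SP birds had the same diet and 0.5 mL of Salmonella pullorum, a bacterial pathogen of chicks, on d 5, and the SPH and SPM birds had this challenge and 300 mg/kg of dietary honokiol or magnolol, related phenols of magnolia bark. Unchallenged and challenged cages stood apart, so that the place and the challenge cannot be told apart. The labels give the tissue as ileum, although their extraction text speaks of retinas and their source name of flora. Against this label were set the enterocyte transcripts APOA1 and FABP1, which had a mean of 5146 and 3943 FPKM.

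The reads on genes ran from 14393822 to 19435410 per bird. The W chromosome, which in birds only females carry, gave transcripts (a summed level above 100 FPKM) in 16 of the 24 birds. Of the 12 high birds 6 had W transcripts, and of the 12 low birds 10 had them, a difference that the two-sided exact permutation test within groups did not separate from the spread (p = 0.176, adjusted p = 0.581 over 12 tests of bird measures). All 6 CTL birds had W transcripts. In SP, SPH and SPM, 1 high bird per group had them, against 2, 2 and 3 low birds. The score ran from 6.44 to 8.81 with a median of 8.14 in the 8 birds without W transcripts, and from 6.83 to 8.32 with a median of 7.73 in the 16 birds with them. These medians pool the groups without centring, and the birds without W transcripts come only from SP, SPH and SPM. Reads per bird had a mean of 16767600 in the high and 16134000 in the low birds (permutation p = 0.339), with medians of 16631300 and 15657300. The mitochondrial genome held a mean of 6.83% of all FPKM in the high and 6.51% in the low birds (permutation p = 0.500).

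IFI6 (ENSGALG00000013575, chromosome 2, 89717661 to 89722211, plus strand, as the deposited table places it) was the more variable marker. Its level ran from 68.0 FPKM in an SPH bird to 794 FPKM in an SP bird, 11.7-fold, around a median of 336, and rested on 1783 to 20751 reads. In CTL the levels were 469, 405 and 258 FPKM in the high birds and 329, 201 and 129 in the low birds. In SP they were 794, 562 and 395 against 343, 208 and 170 FPKM. The SP classes did not overlap, whereas 1 low CTL bird lay above 1 high CTL bird. In SPH the levels were 383, 359 and 175 FPKM in the high and 184, 162 and 68.0 in the low birds, and in SPM 578, 377 and 369 against 429, 257 and 200. In both of these groups the highest low bird exceeded at least 1 high bird.

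OASL (ENSGALG00000013723, chromosome 12, 3635427 to 3637460, minus strand) varied less, from 88.7 to 291 FPKM or 3.28-fold, with a median of 169 and 2501 to 8525 reads. The high CTL birds had 261, 186 and 136 FPKM and the low CTL birds 146, 110 and 99.6. In SP the levels were 291, 259 and 252 against 174, 170 and 125 FPKM, and in SPH 227, 188 and 155 against 111, 105 and 88.7. In SPM they were 253, 196 and 174 against 168, 163 and 148 FPKM. For OASL the classes overlapped only in CTL.

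Of the variance, 78.5% for IFI6, 77.6% for OASL and 75.5% for the score lay between birds of the same group. These shares were below the median over all genes tested, which was 86.9%. The markers followed each other in part. Centred on the group means, their log2 levels had a Pearson correlation of 0.63 and a rank correlation of 0.62 over the 24 birds, which share their libraries. Ranking on IFI6 alone and on OASL alone put 18 of the 24 birds in the same class. The score shared its class with IFI6 for 18 birds and with OASL for 22, and a constant of 1 or 0.01 in place of 0.1 moved 0 birds.

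The distance between the classes was uneven. The mean score of the high birds exceeded that of the low birds by 0.76 in CTL, by 1.04 in both SP and SPH, and by 0.49 in SPM. At the boundary, the bird just inside and the bird just outside had scores of 7.98 and 7.78 in CTL, of 8.32 and 7.94 in SP, and of 7.51 and 7.03 in SPH. The same birds of SPM had 8.002 and 7.975, a gap of 0.03, so that the SPM classes met at nearly the same level. A high SPH bird at 7.51 scored below low birds of CTL, SP and SPM, since the rank was taken within groups.

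**Figure D1:**
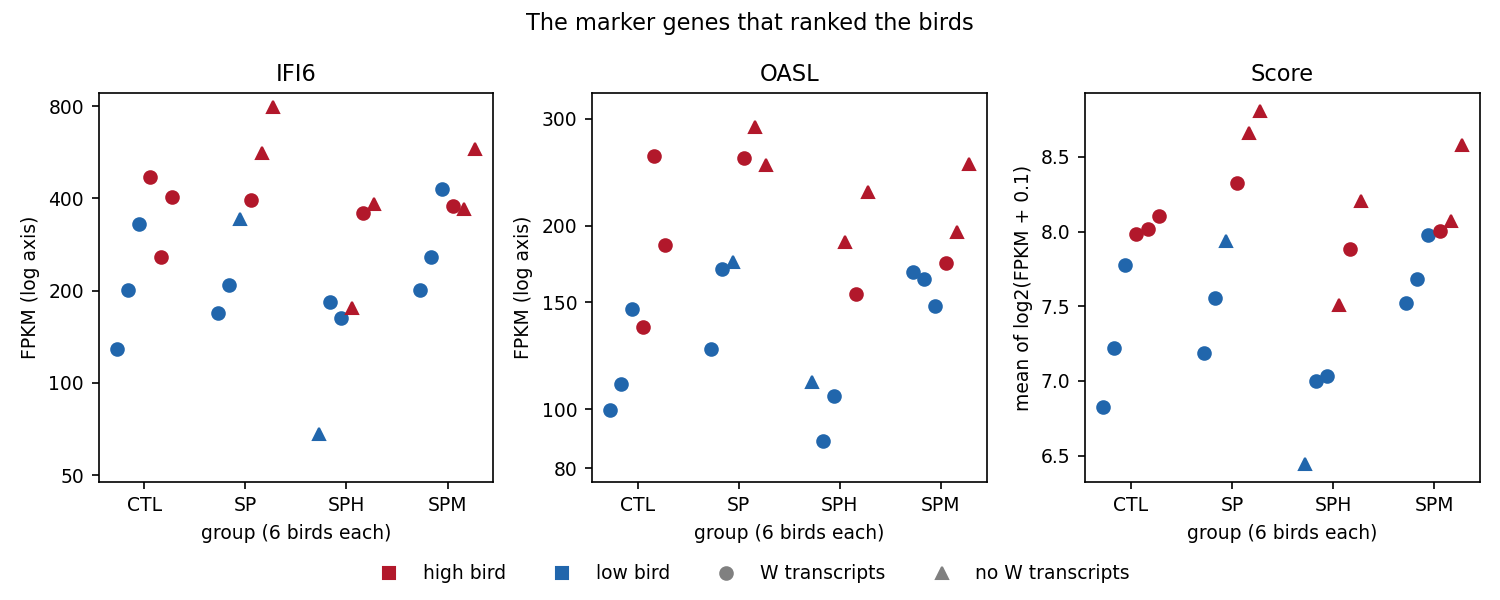
The 3 panels plot IFI6 and OASL in FPKM on log axes and the score, the mean of their log2(FPKM + 0.1), for the 6 birds of each group, with high birds in red, low birds in blue, birds with W transcripts as circles and those without as triangles. IFI6 spans 68.0 to 794 FPKM and OASL 88.7 to 291, and the gap between the classes in score is smallest in SPM, at 0.03.

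The ranking within groups did not use the differences between groups. The mean score (SD, n = 6) was 7.65 ± 0.52 for CTL birds, 8.08 ± 0.63 for SP, 7.34 ± 0.65 for SPH and 7.97 ± 0.37 for SPM. None of the 6 pairs of groups was separated in this score by a two-sided exact permutation test. The largest difference, SPH below SP by 0.73 on the log2 scale, had an exact permutation p of 0.0801 and an adjusted p of 0.240. SPM lay above SPH by 0.63 (permutation p = 0.0714, adjusted p = 0.240), and SP above CTL by 0.42 (permutation p = 0.232, adjusted p = 0.422). The other 3 adjusted p values, from the same permutation tests, were 0.422, 0.442 and 0.727. These tests cover the score only, and the levels of other genes were not compared between groups here. OASL, CMPK2, IFIT5, LY6E and IFITM3 are among the differentially expressed genes that the paper lists, for which it used DESeq2. Its listing has each of these genes at a higher mean FPKM in SP than in CTL, SPH and SPM. Against SPH the listed DESeq2 p was below 0.05 for each of them. Against CTL it was below 0.05 for CMPK2, IFIT5, LY6E and IFITM3 but not for OASL, and against SPM only for LY6E. Those are tests of single genes by another method and threshold, unlike the tests of the score here.

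The 2 classes were then compared across the 13452 genes with a mean of at least 1 FPKM, without IFI6 and OASL, by limma on log2(FPKM + 0.1) with the group as a term and Benjamini-Hochberg adjustment over all these genes. A call needs an adjusted p below 0.05 together with a log2 difference past 0.5 in either direction. Of the 10 genes with the smallest p, 4 were in the interferon lists described below, which held 78 of the 13452 genes tested. CMPK2, MX1 and RSAD2 averaged 71.6, 43.8 and 10.8 FPKM in the high birds and 43.7, 27.3 and 6.91 in the low birds. No gene was called (0 of 13452, 0%), with 0.566 as the lowest adjusted p of limma. Before adjustment, limma had 296 genes with p under 0.05 and limma-voom on the reads recovered from the FPKM had 260, with 0 called by either. With the log2 limit added to the unadjusted p, limma listed 26 genes higher in the high birds (0.193% of those tested) and 39 lower (0.29%). Without the limit these were 174 higher (1.29%) and 122 lower (0.907%). Where no gene differs, a share of 0.05 of the genes is expected at an unadjusted p under 0.05, which is more than was seen here. Over all genes tested the median log2 difference was -0.00, 48.7% of the genes had the higher level in the high birds, and the median SE was 0.10.

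The 7 interferon lists, written by role with earlier results of these data known, held 78 tested genes. Their genes share libraries with each other and with the 2 markers, so the counts below are a description and not 78 independent results. Of these, 0 were called. At the unadjusted p of limma, 15 of the 78 were higher in the high birds and 0 lower, beside the 1.29% and 0.907% of all genes, and 6 of the 15 also passed the log2 limit, beside 0.193%. By sign 48 were higher and 30 lower, with a median log2 difference of 0.05. A higher mean in the high birds of all 4 groups was seen in 22 of the 78 genes, where 724 of all genes tested (5.38%) had it. In at least 2 groups all 3 high birds stood above all 3 low birds for 7 of the 78 genes, and for 0.676% of all genes. The sets of genes within the lists differed, as the following gives by role.

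The ligands had few reads in the tissue. IFNG, the interferon gamma that T and NK cells secrete, had a mean of 0.355 FPKM, with 83 reads over the 12 high birds and 103 over the 12 low birds. One entry of IFN-A (ENSGALG00000046996) had 19 and 14 reads, and IFNW1 had 4 and 1. Of the 18 entries for interferon ligands in the table, 12 were listed at 0 in every bird, among them 3 entries of IFNL3, the type III interferon. All ligands lay below the minimum mean of 1 FPKM, and so 0 of them were in the test. With the minimum at 0.1 FPKM, IFNG had a log2 difference of -0.16 and IFN-A of 0.07, neither called by limma.

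The receptors had ample reads and small differences. IFNGR2, the most abundant, had 42.1 to 54.9 FPKM in the high birds and 43.3 to 57.7 in the low birds, with medians of 50.16 and 49.96. Its log2 difference was -0.04 ± 0.05 (SE). IFNAR1 and IFNAR2, the chains of the type I receptor, and IFNGR1 had log2 differences of -0.07, -0.02 and -0.12. All 4 receptors tested were lower by sign and 0 passed the unadjusted limit. Of the 6 symbols of this list, IFNLR1 and IL10RB matched no symbol in the deposited values and so were not compared by name.

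Among the 11 nucleic acid sensors and adaptors, 3 sensors of double-stranded RNA stood apart from the others. DHX58 (LGP2), a cytosolic helicase that tunes MDA5, had 9.08 to 18.6 FPKM with a median of 14.4 in the high birds and 8.48 to 13.5 with a median of 11.1 in the low birds. Its log2 difference was 0.37 ± 0.09 (SE), higher in 4 of 4 groups, with a limma adjusted p of 0.587. In SP the high birds had 18.6, 16.7 and 16.05 FPKM and the low birds 12.4, 11.7 and 11.3, and in SPH 14.3, 12.0 and 11.7 against 10.7, 9.06 and 8.48. The classes of these groups did not overlap for DHX58, while in CTL a high bird with 9.08 FPKM lay below all low birds.

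IFIH1 (MDA5), the cytosolic sensor of long double-stranded RNA, had 21.0 to 34.2 FPKM in the high and 16.6 to 26.0 in the low birds, with medians of 26.6 and 21.7 and a log2 difference of 0.27 ± 0.09 (SE). It was higher in 3 of 4 groups, and SPM had a difference of -0.01. TLR3, the endosomal receptor for double-stranded RNA, had a log2 difference of 0.30 ± 0.12 (SE), which ran from 0.06 in SPM to 0.66 in SP. The unadjusted limma p was 0.00664 for IFIH1 and 0.0167 for TLR3, and neither was called. The other 8 members had log2 differences between -0.06 and 0.09. Among them were MYD88, the adaptor of most Toll-like receptors and the most abundant of the list (28.1 to 62.3 FPKM in the high and 25.7 to 55.1 in the low birds), CGAS, the sensor of cytosolic DNA, and MAVS, through which IFIH1 signals.

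The signalling molecules and transcription factors had no common direction. Of 16 genes, 7 were higher by sign and 9 lower, with a median log2 difference of -0.00 and 0 genes past the unadjusted limit. STAT2, a transcription factor of type I signalling, and NMI, an interferon-inducible protein, had log2 differences of 0.12 and 0.13 and were higher in 4 of 4 groups. IRF7, the interferon-inducible inducer of type I interferon, had 48.2 FPKM in the high and 45.8 in the low birds. IRF8, a factor of macrophages and B cells and the most abundant of the list, had 121 and 126 FPKM and a log2 difference of -0.05.

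The interferon-induced antiviral genes held 12 of the 15 genes at the unadjusted limit. The 56 symbols of this list matched 31 entries of the deposited values, apart from the markers. Of 29 genes tested, 26 were higher by sign and 3 lower, with a median log2 difference of 0.16 where that of all genes was -0.00. At the unadjusted limma p 12 were higher and 0 lower, 16 were higher in all 4 groups, and 0 were called. The summed level of the list was 2030 to 3975 FPKM with a median of 2745 in the high birds and 1659 to 2966 with a median of 2271 in the low birds. The classes thus overlapped between 2030 and 2966 FPKM. The 10 genes whose level was most like the score over the 24 birds are named below by a rule set with the design. Of the others, LY6E, ZNFX1, MOV10, PARP9, EIF2AK2 and TDRD7 were picked out after their values were seen, because they passed the unadjusted limit.

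CMPK2, a mitochondrial nucleotide kinase induced by interferon, was the gene most like the score. In CTL it had 74.7, 43.3 and 42.5 FPKM in the high and 50.6, 38.6 and 35.5 in the low birds, and in SP 112, 109 and 83.4 against 60.9, 46.6 and 43.6. In SPH it had 75.3, 58.8 and 43.0 against 32.9, 32.4 and 18.0 FPKM, and in SPM 94.9, 65.8 and 56.1 against 70.5, 51.4 and 43.1. The SP and SPH classes were separate, and those of CTL and SPM overlapped by 1 low bird. The log2 difference was 0.71 ± 0.15 (SE), with a 95% interval of 0.39 to 1.02 and an adjusted p of 0.566 by limma, higher in 4 of 4 groups.

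RSAD2 (viperin), an enzyme that makes a chain-terminating nucleotide from CTP, lies next to CMPK2 on chromosome 3 (RSAD2 at 94991681 to 95016338 on the plus strand, CMPK2 at 94980479 to 94986009 on the minus strand). It was less abundant, at 5.56 to 15.6 FPKM with a median of 10.4 in the high and 2.76 to 10.9 with a median of 6.65 in the low birds, on 159 to 1156 reads. The classes overlapped in every group for RSAD2. Its log2 difference of 0.65 ± 0.16 (SE) was higher in 4 of 4 groups, from 0.51 in CTL to 0.79 in SPH, and had a limma adjusted p of 0.597. RNF144A overlaps the end of RSAD2 on the same strand, so that reads may be split between them, and its own log2 difference was -0.11.

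MX1, a dynamin-like GTPase that traps viral nucleocapsids in mammals, had 44.6, 34.6 and 32.4 FPKM in the high CTL birds and 30.1, 24.9 and 22.7 in the low ones. In SP it had 67.6, 66.9 and 45.3 against 39.6, 26.1 and 24.5 FPKM. For MX1 both groups were without overlap, whereas 1 high SPH bird (19.8 FPKM) lay within the low range of 13.4 to 26.3, and 1 high SPM bird (33.0) below a low bird at 39.1. The log2 difference was 0.65 ± 0.15 (SE) with a limma adjusted p of 0.587.

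IFIT5, the IFIT protein of chickens, which binds viral RNA, had 35.7 to 152 FPKM with a median of 76.8 in the high birds and 20.3 to 92.4 with a median of 48.1 in the low birds. Its log2 difference was 0.65 ± 0.19 (SE), between 0.31 in SPM and 0.90 in SP. DDX60, a helicase of the antiviral response, had 131, 90.8 and 76.7 FPKM in the high SP birds and 53.2, 37.2 and 35.8 in the low SP birds. Its difference was uneven over the groups, at 1.22 in SP, 0.67 in SPH, 0.17 in CTL and 0.15 in SPM on the log2 scale, around a fitted 0.55 ± 0.17 (SE). The interaction of class with group was not called for DDX60 or for any other gene (0 of 13452, 0%, smallest adjusted p = 0.611 in limma). It had 295 genes at an unadjusted limma p under 0.05, also below a share of 0.05 of those tested.

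LY6E, a membrane-anchored protein that restricts coronaviruses in mammals, had 119 to 265 FPKM with a median of 169 in the high and 52.7 to 235 with a median of 116 in the low birds. Its log2 difference was 0.58 ± 0.15 (SE), and it was less like the score (r = 0.51 after centring on the group means) than the genes above. The RNA helicases ZNFX1 and MOV10, the ADP-ribosyltransferase family member PARP9, the double-stranded RNA kinase EIF2AK2 (PKR) and the Tudor protein TDRD7 had log2 differences of 0.35, 0.29, 0.32, 0.26 and 0.25. PARP9 was higher in 3 of 4 groups and the other 4 in all groups.

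The most abundant antiviral genes were IFITM1, IFI27L1 and IFITM3. IFITM1, a membrane protein that hinders the fusion of viruses with the cell, had a mean of 766 FPKM and a log2 difference of 0.16 ± 0.19 (SE). Its high SP birds had 1589, 785 and 407 FPKM and its low SP birds 1032, 821 and 676, so that the highest and the lowest SP bird were both high birds. IFITM3, its neighbour on chromosome 5, had 250 to 651 FPKM in the high and 206 to 394 in the low birds, with a log2 difference of 0.37 ± 0.13 (SE) and higher in 4 of 4 groups. IFI27L1, of the same protein family as IFI6, had 433 against 355 FPKM and a log2 difference of 0.27 ± 0.18 (SE), and followed the score little (r = 0.12). SAMHD1, a dNTP hydrolase, IFITM5 and the necroptosis effector MLKL were the 3 genes lower by sign, at -0.05, -0.08 and -0.17.

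**Figure D2:**
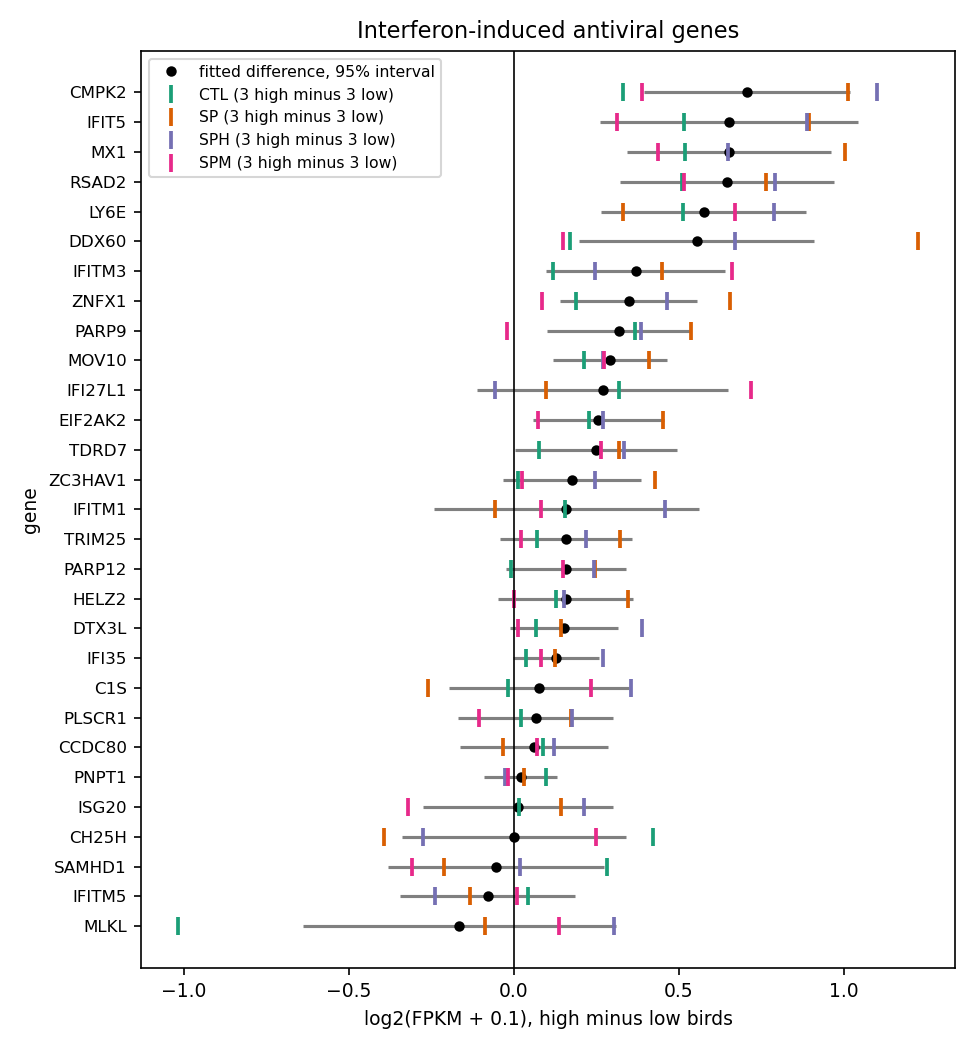
The fitted difference between high and low birds in log2(FPKM + 0.1), with its 95% interval, is drawn as a black point and grey line for the 29 antiviral genes, and the difference between the means of 3 high and 3 low birds as a coloured bar for each group. CMPK2, IFIT5, MX1, RSAD2, LY6E and DDX60 lie above 0.5, and for DDX60 the bar of SP (1.22) lies far from those of CTL (0.17) and SPM (0.15).

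The negative regulators of interferon signalling that matched by symbol were divided, with 2 of 6 higher by sign and 4 lower and 0 past the unadjusted limit. Of the 7 symbols of this list, USP18 matched no symbol in the deposited values and so was not compared by name. Whether its gene is among the 11484 genes without a symbol was not examined. SOCS3, which blocks Janus kinases and is the most abundant of the list, had 7.22 to 83.5 FPKM with a median of 39.4 in the high birds and 16.6 to 147 with a median of 45.2 in the low birds. Its log2 difference of -0.60 ± 0.41 (SE) was made of -1.56 in SP and -1.10 in SPM beside 0.11 in CTL and 0.13 in SPH. SOCS1, the inducible inhibitor that acts on the type I and gamma receptors, had -0.07 ± 0.21 (SE). PTPN2, a phosphatase of cytokine signalling, had -0.12 ± 0.07 (SE) and a lower level in the high birds of all 4 groups.

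The genes of interferon gamma and antigen presentation, which T and NK cells drive, lay on both sides of 0, with 8 of 12 higher by sign and a median log2 difference of 0.05. B2M, the light chain of MHC class I and the most abundant of all interferon list genes, had 1974 to 3255 FPKM in the high and 2019 to 3118 in the low birds, with a log2 difference of 0.05 ± 0.09 (SE). The class I heavy chain BF2 had 1106 and 1035 FPKM as medians and a log2 difference of -0.12 ± 0.22 (SE), and the class II chain BLB2 had -0.31 ± 0.28 (SE). The peptide transporter TAP1 and the chaperone TAPBP had 0.09 and 0.12. BF1 and BF2, and BLB1 and BLB2, are near-identical copies between which reads may be split.

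**Figure D3:**
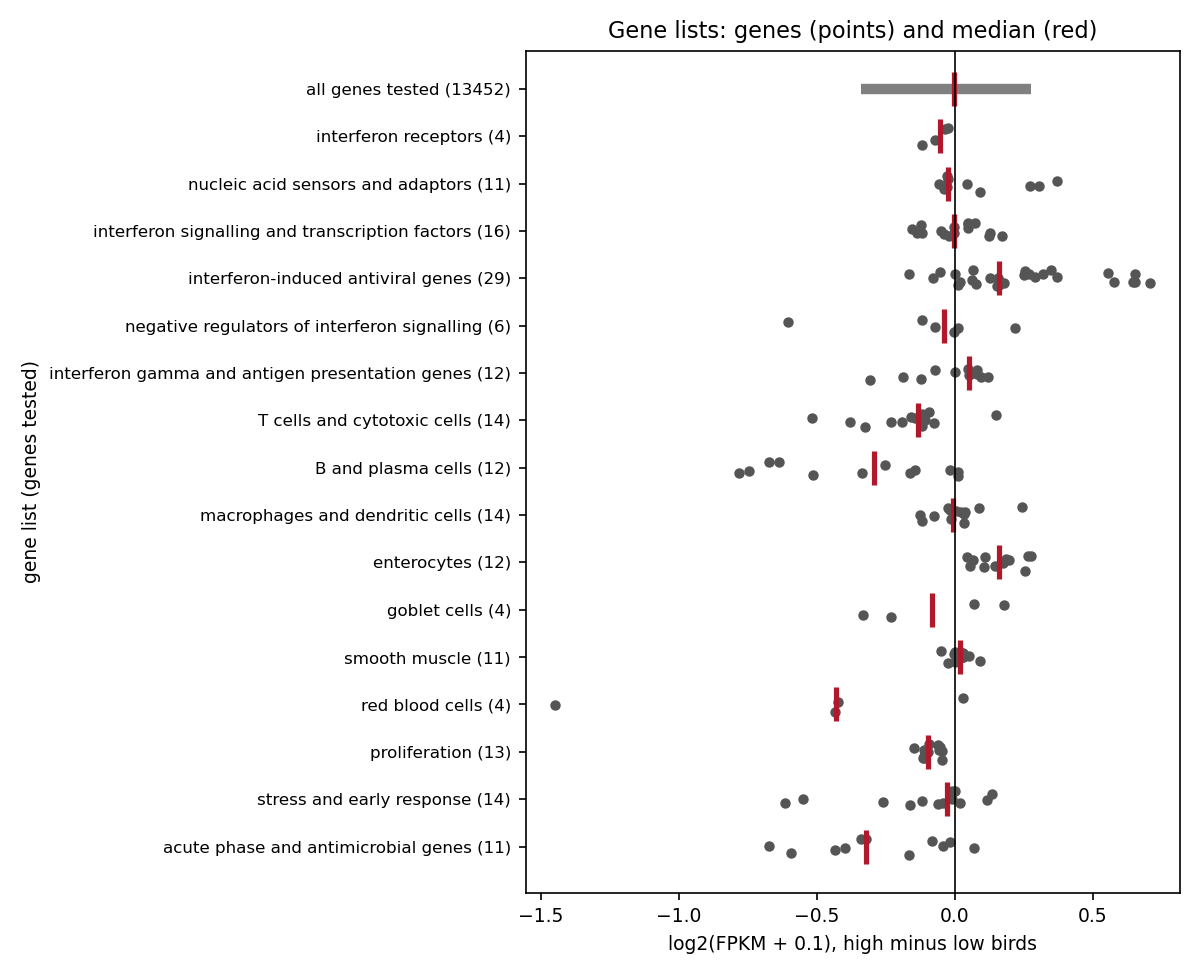
Each point is the log2 difference of 1 gene between high and low birds, by gene list with the number of genes tested, red marks are medians, and the grey bar spans the central 95% of all 13452 genes, from -0.34 to 0.28. The antiviral list has a median of 0.16 and 6 genes above 0.5, while the receptor, sensor and signalling lists have medians of -0.05, -0.02 and -0.00.

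The genes with the smallest p that carry no symbol were picked out after their values were seen. ENSGALG00000030571 (chromosome 1, 168025737 to 168042111, minus strand), without a domain in the table, had the smallest p of all, at 37.4 FPKM in the high and 27.6 in the low birds and a log2 difference of 0.42 ± 0.09 (SE). ENSGALG00000013057 (chromosome 1, 62069663 to 62083647, plus strand), with a ubiquitin carboxyl-terminal hydrolase domain, had 16.4 to 45.2 FPKM with a median of 30.3 in the high and 13.2 to 32.7 with a median of 19.1 in the low birds, and a log2 difference of 0.60 ± 0.13 (SE). ENSGALG00000046098 encodes a ubiquitin-conjugating enzyme domain and had 0.36 ± 0.09 (SE). Each of the 3 was higher in 4 of 4 groups and had a limma adjusted p of 0.566 or 0.587.

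ENSGALG00000013722, a gene with a Sema domain, lies tail to tail with OASL on the other strand (3631598 to 3635036 on chromosome 12). It had 28.8, 18.6 and 18.6 FPKM in the high CTL birds against 14.3, 13.5 and 11.54 in the low ones, and 19.97, 17.7 and 15.5 against 14.7, 10.4 and 9.90 in SP. In SPH, with 21.7, 18.4 and 16.9 against 20.8, 18.8 and 16.7 FPKM, the classes overlapped. Its log2 difference was 0.44 ± 0.10 (SE) with a limma adjusted p of 0.587.

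Likeness to the score was then taken without classes, as the Pearson correlation of a gene's log2 level with the score over the 24 birds after centring both on the group means. It is a description, since all genes of a bird share a library. The 10 genes with the highest values were CMPK2 (0.83), MX1 (0.82), RSAD2 (0.81), DDX60 (0.75), ENSGALG00000042001 (0.74), DHX58 (0.72), IFIH1 (0.72), IFIT5 (0.72), ENSGALG00000009479 (0.71) and TLR3 (0.71). Of them, 8 were members of the interferon lists, which held 78 of the 13452 genes tested. The rank correlations of these 10 were 0.69 to 0.85. Without the birds SP 6 and SPH 3, whose scores after centring on the group means (-0.89 and -0.90) lay farthest from the median, the 10 correlations were 0.57 to 0.78 over 22 birds.

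Both genes without a symbol among the 10 are described only as the table annotates them. ENSGALG00000042001 (chromosome 4, 35025993 to 35044154, plus strand) encodes RCC1 repeats and a HECT ubiquitin ligase domain and had 19.2 to 45.3 FPKM in the high and 14.7 to 34.9 in the low birds, with a log2 difference of 0.43 ± 0.14 (SE). PIGY, placed inside it on the other strand, had a log2 difference of -0.20 and a correlation of -0.70, and the strand setting of the counting is not given in the sources used here. ENSGALG00000009479 (chromosome 2, 22911382 to 22916121, minus strand) has no domain in the table. It had 40.7, 34.7 and 28.4 FPKM in the high SP birds against 21.3, 16.9 and 12.3 in the low SP birds, and a log2 difference of 0.81 ± 0.19 (SE), higher in 4 of 4 groups.

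**Figure D4:**
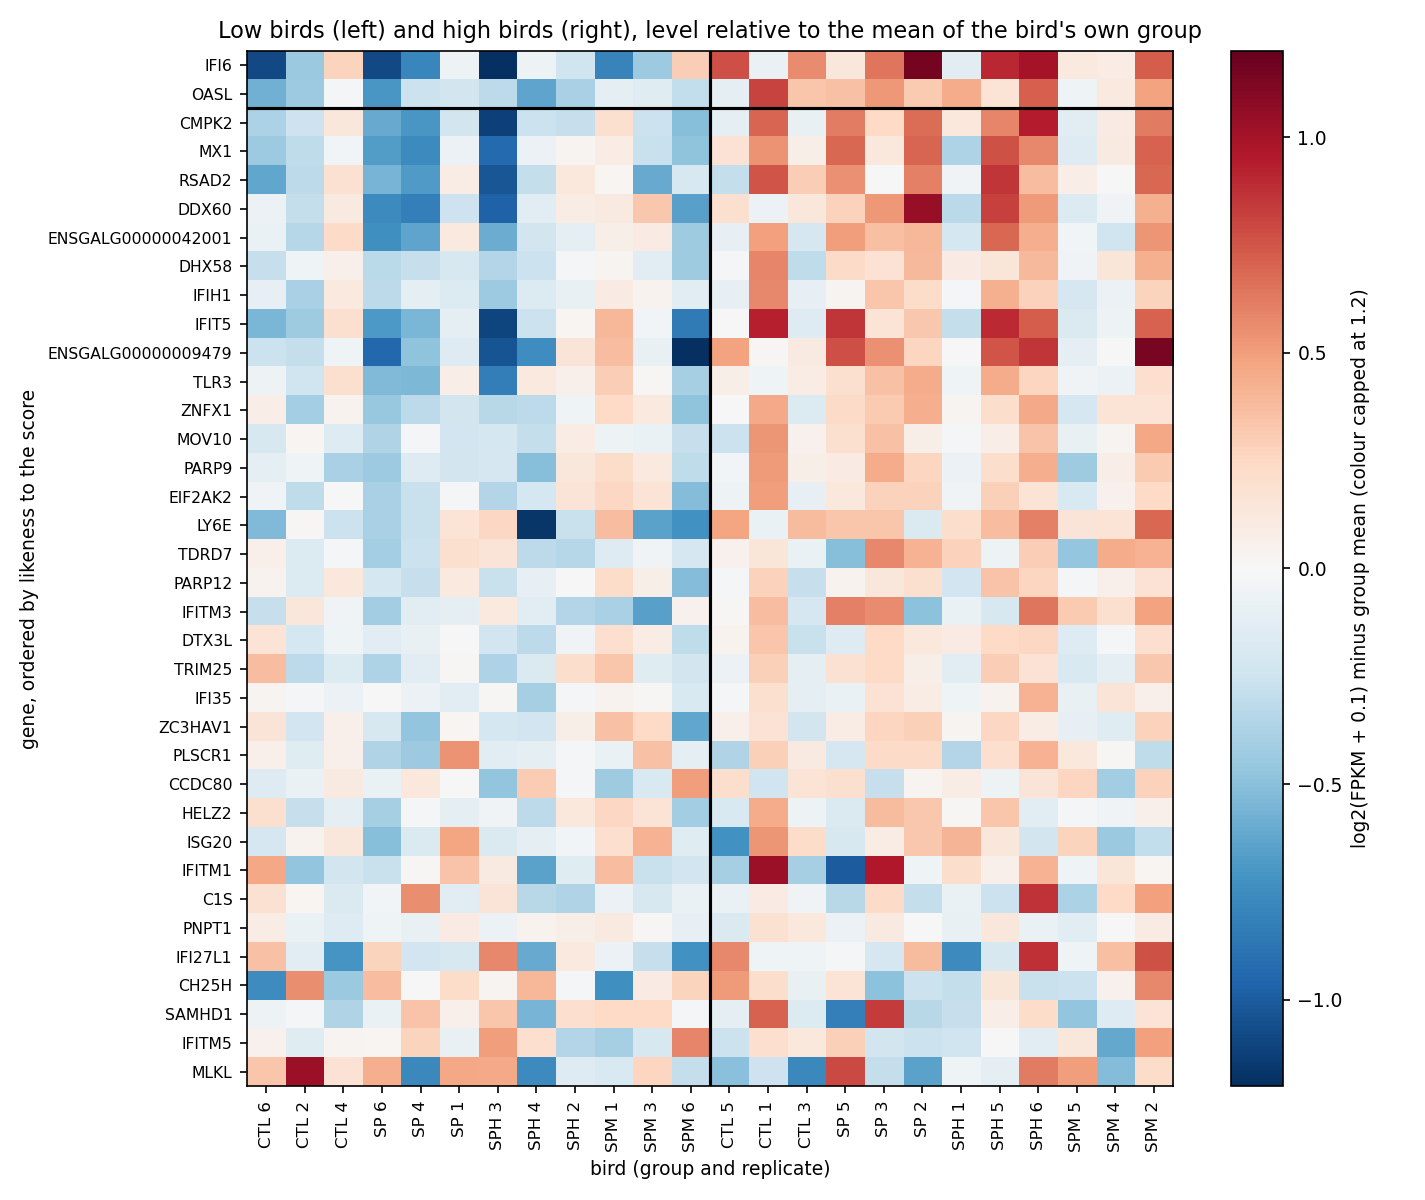
Rows are IFI6, OASL, the 29 antiviral genes and the others of the 10 genes most like the score, ordered by that likeness, and columns are the 12 low birds on the left and the 12 high birds on the right, with colour for log2(FPKM + 0.1) minus the mean of the bird's own group, capped at 1.2. The upper rows from CMPK2 to TLR3 are bluer on the left and redder on the right, while the lower rows from PLSCR1 to MLKL mix red and blue in both classes.

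When the score itself replaced the classes in the limma fit, calls were made at an adjusted p below 0.05 without the log2 limit. By this criterion 3 of the 13452 genes were called (0.0223%), all of them members of the antiviral list. Their log2 level rose with each unit of the score by 0.82 for CMPK2 (adjusted p = 0.00766), 0.77 for MX1 (adjusted p = 0.00874) and 0.78 for RSAD2 (adjusted p = 0.0106). The same 24 libraries gave the score and these levels.

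**Figure D5:**
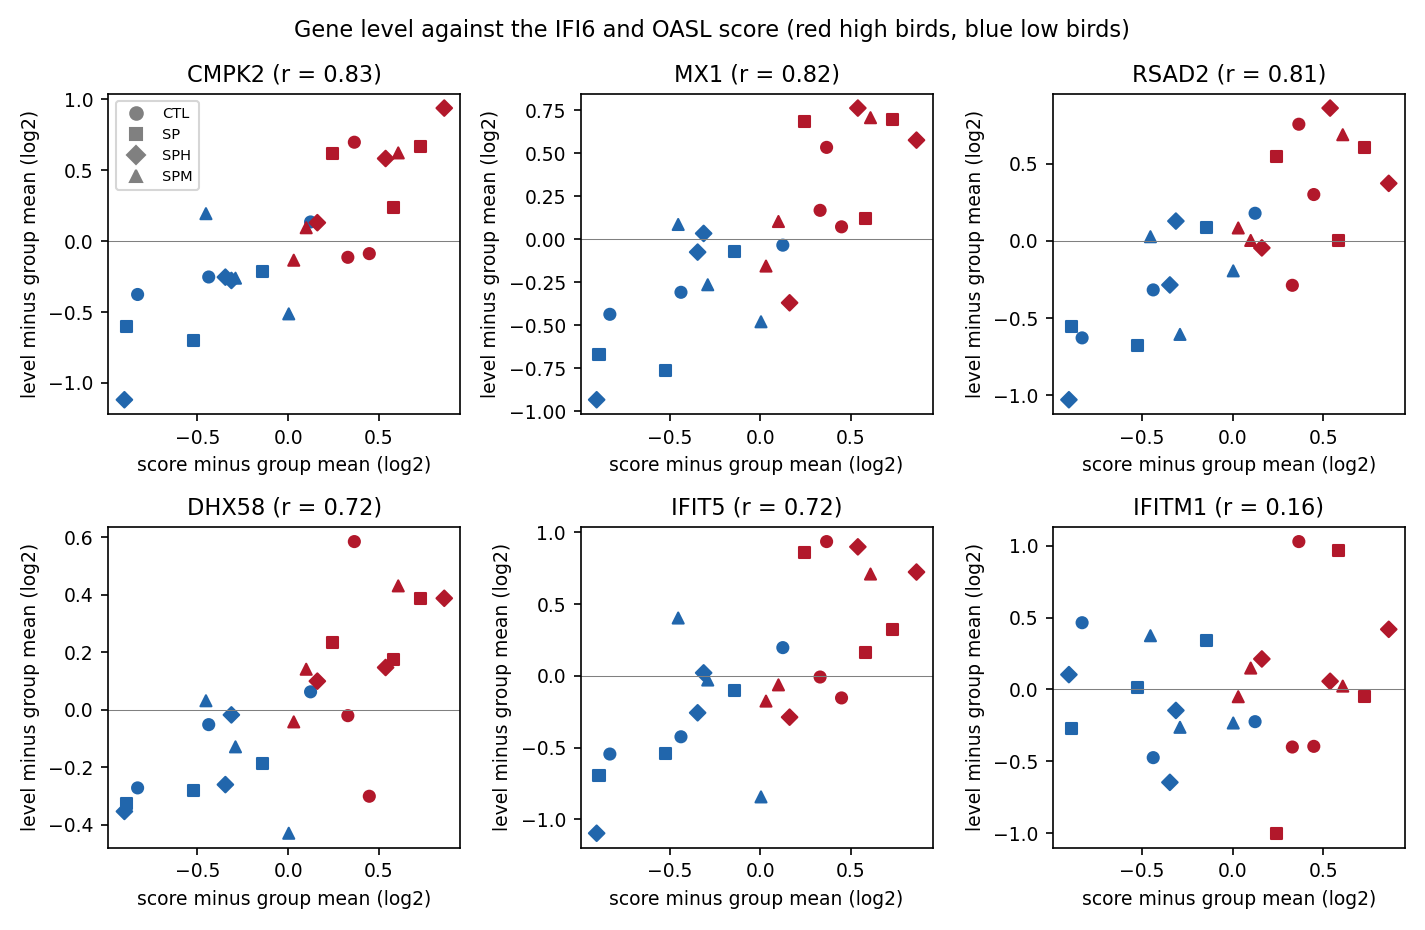
Each panel plots the log2 level of 1 gene minus its group mean against the score minus its group mean for 24 birds, with the group as the symbol, high birds in red and low birds in blue. CMPK2, MX1 and RSAD2 follow the score (r = 0.83, 0.82 and 0.81) with several blue and red points at the same height near the middle, and IFITM1 is looser (r = 0.16).

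The ranking depended on the marker. With birds ranked on IFI6 alone, limma called 16 genes (0.119%), 11 higher and 5 lower, of which 0 were in the interferon lists. Before adjustment, 2115 genes had a limma p under 0.05 with this ranking, beside 296 with the score classes. The 11 higher genes had log2 differences of 0.50 to 0.63. The largest differences were those of the lower genes ENSGALG00000028016 (-2.99), MMP7 (-2.64) and GBE (-1.83). ENSGALG00000028016 was at 1.03 to 4.84 FPKM in SP 2, SP 3, SP 5, SPH 4, SPH 5, SPM 5 and SPM 6. In every other bird, all CTL birds among them, it was at 24.2 to 111 FPKM. The birds with little of it were also those with little GBE (0.0304 to 0.270 FPKM, against 0.743 to 3.42 in the others). GBE had a mean of only 1.05 FPKM, and MMP7 ran from 0 FPKM in CTL 4 to 25.4 in SP 4. PLAU, the urokinase-type plasminogen activator, was higher by 0.52 and the netrin receptor UNC5C by 0.53 on the log2 scale (limma adjusted p = 0.0194 for both). CLCA1, a secreted goblet cell protein, was lower, with a log2 difference of -1.51 (limma adjusted p = 0.0260), and so was CTLA4, an inhibitory receptor of T cells, with -1.002 (limma adjusted p = 0.0260). With the score, the log2 differences of PLAU, UNC5C, CLCA1 and CTLA4 were 0.17, 0.13, -0.33 and -0.28. The mitochondrial share of FPKM moved with this ranking: it averaged 7.36% in the birds high for IFI6 and 5.99% in those low for it (permutation p = 0.000413, adjusted p = 0.00495 over 12 tests), and its part in the 16 genes was not tested. CMPK2 and MX1 had log2 differences of 0.45 and 0.51 under the IFI6 ranking with adjusted p of 0.254 and 0.157 in limma. With birds ranked on OASL alone, 0 genes were called, CMPK2 had a log2 difference of 0.75, and the lowest adjusted p of limma was 0.161.

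The cell makeup of the samples was read from marker lists, in which 0 genes were called. The 12 enterocyte genes were all higher by sign, with a median log2 difference of 0.16 and 0 past the unadjusted limit, and their summed level was 12728 to 28012 FPKM (median 19697) in the high and 10983 to 23463 (median 16776) in the low birds. In bulk tissue, fewer cells of a type and less RNA per cell cannot be told apart. FABP1, a fatty acid carrier, had 4257 against 3630 FPKM. Of the 14 genes of T cells and cytotoxic cells 13 were lower by sign (median -0.13, summed level 424 to 1001 FPKM in the high and 304 to 1146 in the low birds). This list, from which the T cell level below was taken, counts the chemokine CCL19 under more than 1 entry. CD3D, a chain of the T cell receptor complex, had 97.6 against 111 FPKM, and CD28, a costimulatory receptor, had the only unadjusted p under 0.05 of the list, with -0.38. Of the 12 genes of B and plasma cells 10 were lower by sign (median -0.29), with summed levels of 108 to 639 and 87.9 to 688 FPKM. The part of these lists in the result was not tested beyond 2 fits. With the enterocyte level as a term CMPK2 had a log2 difference of 0.64 (limma adjusted p = 0.851). With the T cell level as a term it had 0.69 (limma adjusted p = 0.813), beside 0.71 without (limma adjusted p = 0.566). With the presence of W transcripts as a term CMPK2 had 0.71 (limma adjusted p = 0.99989), and among the 16 birds with W transcripts 0.54. Those 16 birds held 1 high bird in each of SP, SPH and SPM.

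Macrophage and dendritic cell genes were even, with 7 of 14 higher by sign, a median of -0.00 and summed levels of 413 to 683 and 393 to 654 FPKM, and none of the 14 passed the unadjusted limit of limma. Smooth muscle genes had a median of 0.02 over 11 genes and summed levels of 1628 to 3465 and 2019 to 3659 FPKM. All 13 proliferation genes were lower by sign, with a median of -0.10 and a range of -0.15 to -0.04, and 0 passed the unadjusted limit. Of the 4 red blood cell genes 1 was higher by sign and 3 lower, with a median of -0.43 and a range of -1.45 to 0.03. The summed levels of this list overlapped, at 147 to 405 FPKM in the high and 115 to 653 in the low birds. ALAS2, also of this list, ran from 43.6 to 96.5 FPKM, with both ends in high birds. HBE1, an embryonic-type globin, had 0.243 to 4.63 FPKM with a median of 1.26 in the high birds and 1.06 to 6.88 with a median of 3.36 in the low birds. The log2 difference of HBE1 was -1.45 ± 0.34 (SE) with a limma adjusted p of 0.587, on 3 to 58 reads per bird, and HBA1, the abundant globin, had -0.42 ± 0.31 (SE). Goblet cell genes had a median of -0.08 over 4 genes, stress and early response genes -0.03 over 14, with FOS at -0.55 and EGR1 at -0.26 as the 2 with an unadjusted p under 0.05, and acute phase and antimicrobial genes -0.32 over 11, with 0 under it.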

How the data were processed

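The authors deposited 1 FPKM value per gene and bird, with gene length and position, for 25339 genes, of which 11484 have no symbol. Adapters were trimmed and reads mapped before that. No source used here gives the aligner, counter, strand setting or build, and the submitters' processing notes list Bowtie 0.12.2, mm8 and GRCg6a with no role. FPKM times length gave whole reads for 100% of 440917 values above 0 (tolerance 0.001 reads). Depth, 14393822 to 19435410 reads per bird, limits genes of few reads.

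The members, gene lists and tests were chosen with earlier results of these data known. log2(FPKM + 0.1) was fitted with limma 3.58.1 (R 4.3.3), group and class as terms and an intensity trend, on genes whose FPKM averaged 1 or more. The script was tested on simulated data. Measures of birds used two-sided exact permutation tests within groups (160000 regroupings, Python 3.11.15, scipy 1.17.1). The genes planned to be named were the markers, called genes, the most abundant member of each interferon list, the 2 most abundant of other lists and the 10 most like the score. Not all of those from the other lists, or called under alternatives, are given here, and some genes are named after their values were seen. Lists were described by counts and medians. Alternatives were constants of 1 and 0.01, other filters, 2 birds per class, the score as a number, 1 marker alone, other scalings, the replicate block, terms for W transcripts and cell types, birds with W transcripts only, leaving out each group or bird, array weights and limma-voom. A planned motif search and promoter sequences are not reported here. P values were judged against the spread between single birds, 1 per cage. For the high against low fits the classes came from the same libraries as the levels compared. The list counts include genes that are not reported here by name.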

Additional observations from a re-analysis of the deposited data

Results flagged for a closer look

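The total of reads on genes in the bird SPM 1, a low bird, was 19435410 and stood apart from the other 5 SPM birds. Its gap to the next bird was 0.651 of the whole range of the group, above Dixon's 95% critical value for 6 samples. Of 56 sets of 6 values examined 1 was beyond the limit, and chance passes about 1 in 20.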

How the results depend on the processing

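Of the settings tried, 3 moved the count of genes called from 0. The score as a number, called without the log2 limit, gave 3 genes, and all 3 were in the interferon lists. Ranking on IFI6 alone gave 16 genes, none of them in those lists, and an unadjusted p in place of the adjusted one gave 65. Leaving out single birds gave 0 to 0 genes, and the log2 difference then ran from 0.63 to 0.76 for CMPK2, 0.59 to 0.73 for MX1 and 0.57 to 0.71 for RSAD2. Over the other alternatives it was 0.45 to 0.89, 0.51 to 0.87 and 0.48 to 0.96, lowest for CMPK2 and MX1 under the IFI6 ranking. Their limma adjusted p ran from 0.00766, 0.00874 and 0.0106 with the score as a number to 0.999982 for each without the bird SPM 2. A replicate block called 0 genes. The replicate numbers come from the labels, which do not say what a number shared between groups stands for. Same-numbered birds of different groups had correlations of -0.32 to 0.36 over 36 pairs (5 above 0.1), with 1 of 24 birds closest to its own number. The interaction gave 1 gene with a mean FPKM of at least 0.1 and 295 at an unadjusted p. Antiviral genes higher by sign, recounted under each setting after seeing the data, numbered 26 of 29, with 24 to 26 without single birds and 20 to 27 elsewhere, 20 under the IFI6 ranking. The score differences between groups stayed on the same side of the threshold in every setting run. No scaling moved the median of all genes by more than 0.1. The SPM classes met at a gap of 0.03, so single birds there could change class.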
